A study of Mus musculus with 6 samples.

Results

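The Pde4b locus was described here in an ATAC-seq table of mouse colon cancer organoids. The locus was taken as the window from 101.74 to 102.31 Mb of chromosome 4 in build mm9, which holds the gene Pde4b, and every peak of the table that overlapped it was a member. The window held 5 of the 43020 peaks. All 5 lay between 102.179 and 102.243 Mb, a run of neighbouring peaks that had been singled out because each was less accessible in tumour-derived lines than in naive organoids. The rest of the window held 0 peaks of the table, so a comparison of the run with other peaks inside the window could not be made. The measured difference between the groups chose these peaks, and their levels and fold changes are therefore given as a description without a test.

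In this assay the Tn5 transposase inserts adapters where chromatin is open, so that accessible regions collect more reads. The naive group was 3 libraries of colon cancer organoids of the genotype labelled AKP that had not been in a mouse. The primary tumour group was 3 libraries of AKP organoid lines grown out of colon tumours. Those tumours came from AKP organoids placed by colonoscopy in immunocompetent C57Bl6 mice, and passaging of the lines went on until the culture held nothing but cancer cells. Both groups share the AKP genotype, and growth in the mouse, outgrowth and later passage differ together between them, so their effects cannot be told apart. The labels do not say whether the naive libraries came from separate cultures, and the spread between them may be technical. Accessibility at genes that mark the epithelium or other cell types was not analysed here, because gene positions of build mm9 were not used.

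Pde4b encodes phosphodiesterase 4B, an enzyme that breaks down cyclic AMP. Cyclic AMP is a second messenger made by adenylyl cyclases downstream of many hormone and prostaglandin receptors; it activates protein kinase A, which phosphorylates transcription factors of the CREB family, and it drives chloride secretion in the gut epithelium. The gene has several start sites, which give long and short forms of the enzyme that differ in their regulatory N-terminal part, and inhibitors of the PDE4 family are used against inflammation. In the RefSeq annotation of another build, GRCm38.p6, the nearest protein-coding genes are Gm12789 before it and Sgip1, an endocytosis adaptor gene, after it. Inside its span that annotation lists the long non-coding RNA genes Gm52669, Gm52668 and Gm52667 and the pseudogenes Gm18219 and Gm18220.

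RefSeq gives promoter sequences for 4 Pde4b start sites in GRCm38.p6. They cannot be placed against the mm9 peaks here, and whether any of the 5 peaks is a promoter was not analysed. The 250 bases before each start were searched on both strands for 7 short motifs. These were ATTGTT for SOX factors, ATCAAAG for the Wnt-responsive LEF family, TGANTCA for AP-1, TTTATG for the intestinal CDX factors, TGTTTAC for forkhead factors, AGATAA for zinc-finger factors of the endoderm, and TGACG for CREB-type factors, which bind it as a half-site. TGACG was found in 1 of the 4, and 17.8% of all 32851 listed promoters hold it. The other 6 motifs had no match in the 4, and between 3.17% and 10.8% of all promoters hold each. With only 4 promoters, 1 match cannot be told apart from the 17.8% over all promoters. The promoter with the match is shown only because it is the one that carries a letter pattern of the cyclic AMP pathway. It lies at chr4:102421305-102421554 (GRCm38.p6, + strand), 46% of its bases are G or C against a median of 52.4% over all promoters, and the capitals mark the half-site, which reads CGTCA on this strand and begins 34 bases before the start.
Pde4b promoter: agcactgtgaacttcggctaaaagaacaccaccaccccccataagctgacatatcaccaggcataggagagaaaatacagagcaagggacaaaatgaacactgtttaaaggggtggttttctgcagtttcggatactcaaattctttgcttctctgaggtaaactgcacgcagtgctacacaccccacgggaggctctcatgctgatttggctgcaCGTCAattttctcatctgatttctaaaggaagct

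Summed over the 5 peaks, the accessibility of the locus was 4.88-fold lower in the primary tumour lines than in naive organoids. Naive replicates 1, 2 and 3 had 167, 739 and 267 reads over the peaks, and primary tumour replicates 1, 2 and 3 had 61, 54 and 73, although the shallowest of the 6 libraries was naive replicate 1 (1185356 reads in all peaks) and the deepest was naive replicate 2 (5987545). As CPM, the count relative to the TMM-scaled library total, the naive values were 143, 136 and 114 and the primary tumour values were 17.4, 28.6 and 34.6. The groups did not overlap, and the lowest naive library stood 3.29-fold above the highest primary tumour library. The mean was 131 ± 15.2 CPM in naive organoids and 26.9 ± 8.74 CPM in the primary tumour lines (SD, n = 3 each), a log2 ratio of -2.29. In these bulk libraries, fewer cells with open chromatin and less open chromatin per cell cannot be told apart.

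**Figure D1:**
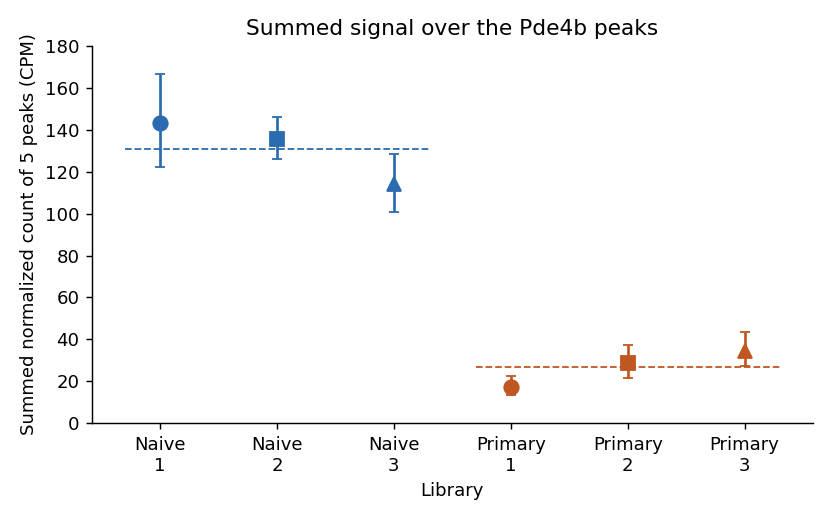
Summed normalized count (CPM, linear axis) over the 5 Pde4b peaks in each library; bars are exact 95% Poisson intervals, which cover counting error only, and dashed lines are group means. The naive libraries lie between 114 and 143 CPM and the primary tumour lines between 17.4 and 34.6 CPM.

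Reads were left in every tumour-derived line, at different levels. Primary tumour replicate 1 had 13.3% of the naive mean, replicate 2 had 21.8% and replicate 3 had 26.4%. The mean of the lines at a single peak was 3.92 to 6.47 CPM. The nearest peak before the run, itself too weak to be tested, had a mean of 4.41 CPM in the lines. No background level was estimated, so whether the remaining reads mark open chromatin was not tested. The exact 95% Poisson intervals, which cover counting error only, were 13.3 to 22.3 CPM in replicate 1, 21.5 to 37.3 CPM in replicate 2 and 27.1 to 43.5 CPM in replicate 3. Those of replicates 1 and 3 do not overlap, and that of replicate 2 overlaps both. Among the lines the highest sum was 1.99 times the lowest, against 1.26 times among the naive libraries.

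Primary tumour replicate 1, the line with the lowest signal at the locus, also had lower signal on chromosome 4 as a whole. Its median log2 ratio to the naive mean over the 2459 other tested peaks of chromosome 4 was -0.22, against -0.02 in each of the other lines and values from -0.01 to 0.03 in the naive libraries. Over all tested peaks of the table the median of primary tumour replicate 1 was 0.003. Other chromosomes were not computed, so whether such a shift is particular to chromosome 4 was not tested. With every library scaled by its own chromosome 4 median, the log2 ratio of the summed peaks was -2.21. Without primary tumour replicate 1 it was -2.04.

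Each of the 5 peaks was lower in all 3 primary tumour libraries than in any naive library. That separation was seen at 15.3% of the 36179 tested peaks of the table. All 5 were called lower by edgeR's quasi-likelihood test at an adjusted p under 0.05, as the choice of the run requires, and 6.4% of tested peaks were called in that direction. Their log2 fold changes lay between -2.89 and -2.10 (median -2.19), where the median of all tested peaks was -0.01. At most 0.829% of tested peaks had a lower fold change than any of the 5. All 5 passed the filter on low counts through the naive libraries, where they are high. The primary tumour libraries alone would not have met it at any of the 5. At a stricter minimum of 20 reads in at least 3 libraries, all 5 again passed only because the naive libraries were counted. At 4 of them no primary tumour library reached 20 reads. The fifth along the chromosome had 20 reads in primary tumour replicates 1 and 3 and 8 in replicate 2.

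The first peak, 915 bp wide and ending at position 102179928 of chromosome 4, had the lowest fold change and the closest naive replicates. It held 35, 156 and 64 reads in naive replicates 1 to 3 against 10, 7 and 11 in primary tumour replicates 1 to 3. In CPM these were 30.0, 28.7 and 27.3 against 2.85, 3.70 and 5.22. All lines lay far below the naive range, with a 5.24-fold gap between the lowest naive and the highest primary tumour value. The log2 fold change was -2.89 (SE 0.41).

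The second peak, chr4:102183834-102184546, begins 3.91 kb after the first. Reads were 32, 136 and 42 in the naive libraries against 14, 14 and 11 in the primary tumour lines, in replicate order, or 27.5, 25.0 and 17.9 CPM against 3.99, 7.41 and 5.22 CPM. Here naive replicate 3 was the low naive library and primary tumour replicate 2 the high line. The log2 fold change was -2.10 (SE 0.42), the smallest in size of the 5.

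The third peak, chr4:102199983-102200578, is the narrowest of the 5 at 595 bp and the one at which the tumour-derived lines differed most. Naive replicates 1 to 3 had 20, 143 and 45 reads (17.2, 26.3 and 19.2 CPM), and primary tumour replicates 1 to 3 had 3, 13 and 15 reads (0.856, 6.88 and 7.11 CPM). Replicate 1 was low, and replicates 2 and 3 were close to each other. The 3 reads of replicate 1 allow 0.176 to 2.50 CPM (exact 95% Poisson interval), below the intervals of replicate 2 (3.66 to 11.8 CPM) and replicate 3 (3.98 to 11.7 CPM). The log2 fold change was -2.19 (SE 0.52) with all libraries and -1.60 without primary tumour replicate 1. Without naive replicate 2, the deepest library, it was -1.96 and the peak was no longer called; the other 4 peaks then still were, with 2.23% of tested peaks called lower.

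The fourth peak, chr4:102209817-102210846, is the widest at 1029 bp. Its reads were 43, 154 and 54 in the naive libraries and 14, 12 and 16 in the primary tumour lines, which gave 36.9, 28.3 and 23.1 CPM against 3.99, 6.35 and 7.59 CPM. Naive replicate 1 was highest and primary tumour replicate 1 lowest. The log2 fold change was -2.31 (SE 0.40).

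The fifth peak, 813 bp wide and beginning at position 102242609, stands 31.8 kb from the fourth, the widest spacing in the run. It held 37, 150 and 62 naive reads against 20, 8 and 20 in the primary tumour lines (31.7, 27.6 and 26.5 CPM against 5.70, 4.23 and 9.49 CPM). It had the highest mean CPM of the 5 in the lines, 6.47, though not the highest per length, and it was the one peak at which replicate 2, not replicate 1, was the lowest line. The log2 fold change was -2.13 (SE 0.39).

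**Figure D2:**
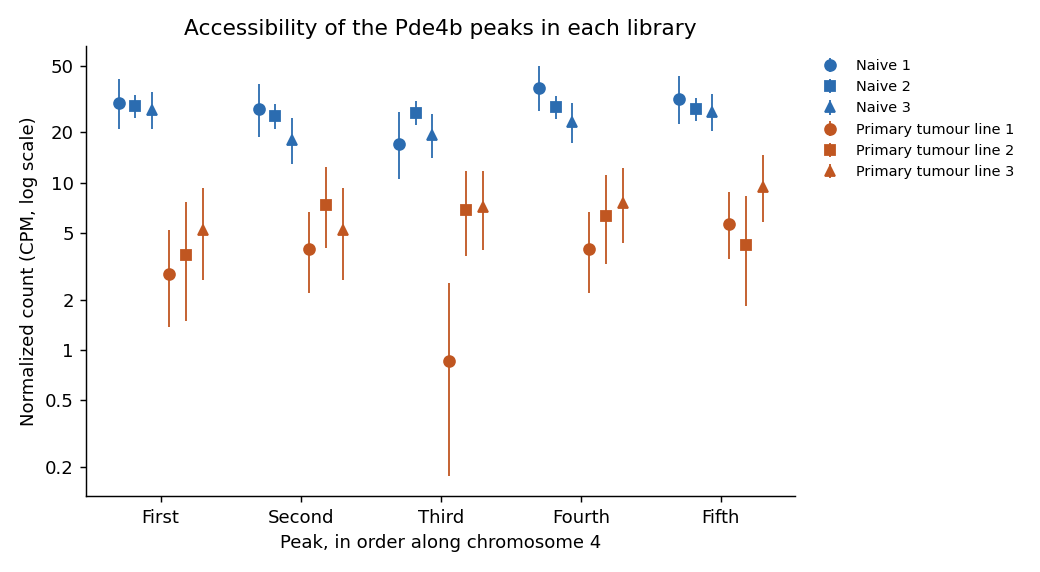
Normalized count (CPM, log axis) of each of the 5 Pde4b peaks, in order along the chromosome, in each library; bars are exact 95% Poisson intervals, which cover counting error only. At every peak the 3 primary tumour lines lie below the 3 naive libraries, and primary tumour replicate 1 stands low at the third peak with 0.856 CPM.

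Per length, the mean naive levels of the 5 peaks were close, while single naive libraries spread more. Naive replicate 2 ran from 27.5 CPM per kb at the fourth peak to 44.2 at the third. In naive replicate 1 the third peak was the lowest at 28.8 CPM per kb and the fifth the highest at 39.0. Naive replicate 3 ran from 22.4 CPM per kb at the fourth peak to 32.6 at the fifth. Mean naive levels ran from 28.6 CPM per kb at the fourth peak to 35.2 CPM per kb at the fifth, with the third at 35.1, the second at 32.9 and the first at 31.3. In the primary tumour lines they ran from 4.29 CPM per kb at the first peak to 8.32 CPM per kb at the third. No 1 peak dominated the locus: in the naive libraries the share of a single peak in the reads of the run ran from 12.0% (the third peak in replicate 1) to 25.7% (the fourth peak in replicate 1).

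The share of each peak in the reads of the run was also compared, and in the tumour-derived lines it rests on 54 to 73 reads per library. The first peak took 21.0% to 24.0% of the reads in the naive libraries and 13.0% to 16.4% in the primary tumour lines, so the 2 ranges did not overlap. In the lines that peak held only 10, 7 and 11 reads, and its low share restates that it had the lowest fold change of the 5. How often a share separates the groups at other loci was not computed. The third peak took 12.0%, 19.4% and 16.9% in naive replicates 1 to 3, against 4.92%, 24.1% and 20.5% in the primary tumour lines in the same order. At the 4 peaks other than the first, the ranges of the groups overlapped. The second took 15.7% to 19.2% in the naive libraries and 15.1% to 25.9% in the lines. For the fourth the lines were the closer group, with 21.9% to 23.0% against 20.2% to 25.7% in the naive libraries. The fifth took 32.8%, 14.8% and 27.4% in primary tumour replicates 1 to 3, against 20.3% to 23.2% in the naive libraries. A share within a library does not depend on how libraries are scaled to each other, but it uses the same reads as the fold changes.

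**Figure D3:**
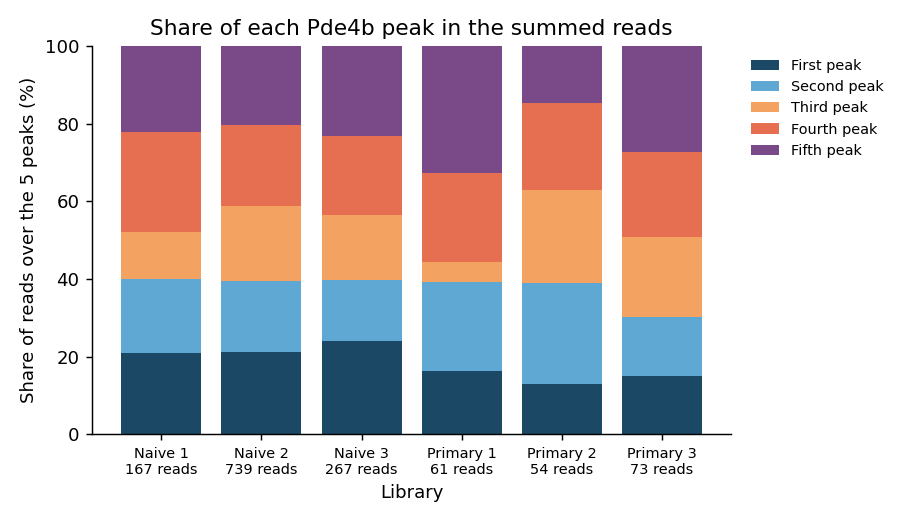
Share (%) of the reads over the 5 Pde4b peaks that fell in each peak, by library, with the number of reads under each bar. The third peak has its lowest shares in naive replicate 1 (12.0%) and primary tumour replicate 1 (4.92%) within their groups.

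The locus is isolated in the table. The nearest peak before the run ends 457 kb away and the nearest after it begins 312 kb away, while the median gap between neighbouring peaks of the table is 15.2 kb. Gaps of at least 312 kb make up 3.77% of all 42999 gaps. Inside the run the gaps are 3.91, 15.4, 9.24 and 31.8 kb.

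Neither neighbour had the profile of the run. The peak before it, chr4:101721989-101722331, lies 17.7 kb outside the window and was too weak to be tested, with 4, 25 and 11 naive reads and 14, 4 and 15 primary tumour reads (4.24 ± 0.703 and 4.41 ± 2.52 CPM, SD, n = 3 each). The peak after it, chr4:102555773-102556354, lies 246 kb outside the window and had 11, 21 and 33 naive reads and 12, 10 and 24 primary tumour reads (9.13 ± 5.12 and 6.70 ± 4.16 CPM, SD, n = 3 each). The groups overlapped at both. The second had a log2 fold change of -0.43 (SE 0.58) and was not called. Both were chosen after their values were seen, because the window held no other peak.

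Within 2 Mb of the run, 17 other peaks were tested. Of these, 1 was called lower and 2 were called higher, where 6.4% and 8% of all tested peaks were called lower and higher. The lower one was chr4:100937055-100938142 (log2 fold change -0.74, SE 0.25), and the higher ones were chr4:100337350-100337903 (2.77, SE 0.56) and chr4:102936318-102938241 (0.88, SE 0.28), named after their values were seen. What genes lie there was not analysed. Over all 17, the median log2 fold change was -0.43 and the range was -1.83 to 2.77. None was as low as the weakest of the 5, which had been chosen for being low. At 4 of the 17 (23.5%) all lines lay below all naive libraries, against 15.3% of all tested peaks. These were 4 of the 10 peaks before the run and 0 of the 7 after it. The summed signal of all 17 was 450, 537 and 468 CPM in naive replicates 1 to 3 and 415, 423 and 434 CPM in primary tumour replicates 1 to 3. With each library scaled by the reads over these neighbours, the log2 ratio of the summed Pde4b peaks was -2.11.

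**Figure D4:**
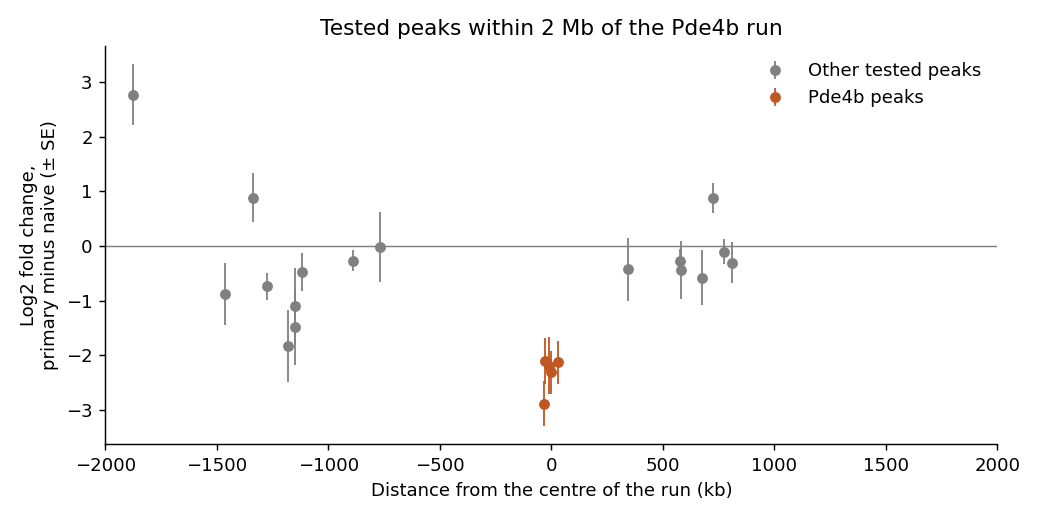
Log2 fold change (primary tumour minus naive, with its SE) of all tested peaks within 2 Mb against their distance in kb from the centre of the Pde4b run. The 5 Pde4b peaks lie between -2.89 and -2.10 and the 17 others between -1.83 and 2.77.

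The table held 16 runs of at least 4 consecutive tested peaks called lower, each peak within 50 kb of the next. All were chosen by the same contrast, and their order is a description. By the ratio of summed CPM the Pde4b run came first with 4.88-fold, next to a run of 4 peaks at chr10:60253685-60262495 with 4.86-fold; that gap is smaller than the spread among the lines at Pde4b. The others ranged from 2.01-fold to 3.97-fold. Counting only peaks held in the table, the Pde4b run was also the most isolated of the 16. The distance to the nearest peak outside the run was 312 kb, and between 0.887 and 114 kb for the others. The summed naive signal of the Pde4b run was 131 CPM, and between 79.4 and 590 CPM in the others.

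**Figure D5:**
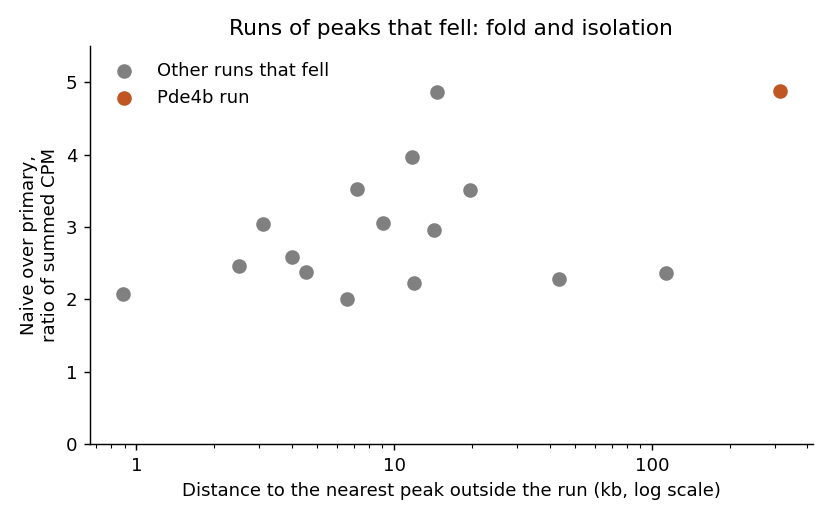
Ratio of summed CPM (naive over primary tumour) of each of the 16 runs of peaks that fell, against the distance in kb (log axis) to the nearest peak outside the run. The Pde4b run lies at 4.88-fold and 312 kb, and the other runs at 0.887 to 114 kb.

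The 3 peaks most like the summed run over the 6 libraries, by Pearson's r of log2(CPM + 1) among 29151 candidates, were found on chromosomes 12, 1 and 4. The first, chr12:88314000-88315747, had r = 0.999 with a smaller change, from 98.7 ± 4.50 to 57.5 ± 6.17 CPM (SD, n = 3 each). At chr1:135095317-135095955 (r = 0.998) the levels were 22.5 ± 0.994 and 5.91 ± 1.47 CPM. At chr4:98818597-98819403 (r = 0.998) they were 24.0 ± 3.13 and 6.06 ± 2.07 CPM, close to those of a single Pde4b peak. In all 3, primary tumour replicate 1 was the lowest line and replicate 3 the highest, as in the summed run. Choosing peaks by r favours that order, so it is no further likeness. The likeness rests on 6 points that share libraries and depth, and the highest of so many candidates is high by selection.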

How the data were processed

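The authors deposited 1 table of raw read counts per peak for 6 libraries, and per the table's row names 1 peak set over all samples was counted. Per the submitters' processing notes the build was mm9 and the tools included Bowtie, Picard, SAMtools, MACS2 and bedtools; the sources used here give no versions, duplicate treatment or transposase offset, each of which can change counts. Coordinates are as the table gives them; the window ran from 101740000 to 102310000 and the run from 102179013 to 102243422 on chromosome 4. Libraries held 1185356 to 5987545 reads in peaks. Counts were analysed with edgeR 4.0.16 (R 4.3.3): filterByExpr left 36179 of 43020 peaks, libraries were scaled by TMM, and group was tested by the robust quasi-likelihood F test with Benjamini-Hochberg adjustment over all tested peaks. The direction of every log2 fold change is primary tumour minus naive, with its SE taken from the F statistic. CPM, shares and sums were computed from the counts. The code was tested on simulated data. The members, lists and rules were chosen with earlier results of these data known. Named peaks were all 5 members, the nearest peak on each side and the 3 most like the summed run. The planned gene lists (cyclic AMP signalling, cell types) and motifs in peaks need mm9 annotation or sequence and were not analysed here.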

Additional observations from a re-analysis of the deposited data

How the results depend on the processing

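The summed Pde4b peaks kept their direction in every setting tried. The log2 ratio of -2.29 became -2.22 with total-count scaling, -2.28 with DESeq2 size factors, -2.14 as the median over peaks, -2.24 with a pseudocount of 1 CPM, and between -2.50 and -2.04 with 1 library left out. Scaling by the neighbours within 2 Mb was added after the data were seen. The 5 peaks kept their call in 64 of 65 combinations of peak and setting; the exception was the third peak without naive replicate 2 (adjusted p = 0.0683, edgeR), and the cause was not tested. These settings reuse the libraries that chose the peaks and give no independent support. Over all tested peaks, calls numbered 5210, and between 4659 and 5245 with another scaling, filter or the DESeq2 1.42.0 Wald test. Leaving out 1 library gave between 2215 and 5440, the lowest without naive replicate 2. With the replicate block in the model, 3539 peaks were called, again with all 5 members; libraries sharing a number deviated from their group means with correlations of -0.24, -0.11 and 0.01, so the numbers were not taken to pair the libraries. The planned values for the rest of the window have no peak to rest on, and the filter removed none of the 5, so summing the peaks that pass it tests nothing. With 3 to 20 reads per peak in each tumour-derived line, the 95% counting intervals of the 3 lines overlap at 4 of the 5 peaks.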

Other observations

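The Pde4b peaks had low scores for their signal in naive organoids. The authors' score, which no source used here explains, was 5.94, 10.6, 15.4, 7.98 and 8.43 for the 5 peaks in order, where the median over all 43020 peaks is 21.8. These scores lie between the 7.28th and the 40.6th percentile of all peaks. The mean naive CPM of the same peaks lies between the 59.9th and the 70.5th percentile of tested peaks, and the mean CPM of the primary tumour lines between the 2.92nd and the 13.7th. Among the 16 runs of peaks that fell, the Pde4b run had the lowest median score, 8.43, and the others had 11.0 to 86.2. The score was given once per peak over all samples, and how the libraries entered it was not tested.

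Peak numbers in the table follow the coordinates on chromosome 4, and 7 numbers between the neighbours of the run have no peak in the table: 2 before the run, 1 inside it and 4 after it. Why they are missing was not tested, and missing numbers near the other runs of peaks that fell were not counted. The isolation of the Pde4b run therefore refers only to peaks kept in the table.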
